A study of Mus musculus with 39 samples.

Results

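The young inferior colliculus is described here from 8 of the 39 arrays of the study, the arrays whose mice were labelled young controls by hearing status. The members were taken by that label and not by a measured value, though earlier results of these data were known. The 8 mice were 4 males and 4 females of the inbred strain CBA/CaJ, bred in house from purchased pairs, kept in a quiet room and left untreated. The study held 17 middle-aged mice, 9 mice with mild and 5 mice with severe hearing loss of old age as well, which are not described below and enter only an alternative fit that shares its spread over all 39 arrays. The labels give no age for the young mice. The mice had been through physiological hearing recordings several days before the tissue was taken. The colliculus of each mouse was dissected from the midbrain under a stereomicroscope, and its RNA was labelled and hybridised to 1 Affymetrix MOE430A array.

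The inferior colliculus is the main auditory centre of the midbrain, where nearly all ascending auditory pathways from the brainstem meet before they reach the thalamus. Its own neurons use either glutamate or GABA as their fast transmitter, and glycine reaches it through axons from lower auditory nuclei. Glutamate neurons there load their vesicles with the transporter encoded by Slc17a6. GABA neurons make their transmitter with glutamate decarboxylase, encoded by Gad1 and Gad2, and load it with the transporter encoded by Slc32a1. The GABA-A receptor is a chloride channel built of several kinds of subunit, one of them encoded by Gabrb1.

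The level of a gene is log2(intensity + 16), where intensity is the deposited signal of its probe set (a group of short probes read as 1 value) and 16 is a pseudocount that damps the noise of dim probe sets. In all, 12393 genes were named by a single symbol, and each was represented by its probe set with the highest mean. A value written with ± is a mean with its SD over the 8 mice. Probes differ in how brightly they bind, so an order of genes by level is an order of signal and not of transcript number. For the 4956 genes with over 1 probe set, the dimmest and brightest probe sets lay a median of 2.04 apart on the log2 scale. In tissue homogenates, fewer cells of a type and less RNA per cell cannot be told apart.

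The promoters of the 3 genes that stand for the glutamate neurons, the GABA neurons and the GABA-A receptor of the colliculus are shown first, because the rest of the description starts from these genes. Each run holds 250 bases before and 50 bases after the first listed transcription start, 5′ to 3′ on the strand of the gene, from RefSeq on GRCm38.p6. Capitals mark the letters of 3 short motifs on either strand. The first is TATAAA, the TATA box. The second is GGGCGG, where factors of the Sp family bind. The third is CCAAT, where the factor NF-Y binds. The Gad1 promoter lies at chr2:70561879-70562178, that of Slc17a6 at chr7:51621580-51621879 and that of Gabrb1 at chr5:71657671-71657970, all on the plus strand.
Gad1: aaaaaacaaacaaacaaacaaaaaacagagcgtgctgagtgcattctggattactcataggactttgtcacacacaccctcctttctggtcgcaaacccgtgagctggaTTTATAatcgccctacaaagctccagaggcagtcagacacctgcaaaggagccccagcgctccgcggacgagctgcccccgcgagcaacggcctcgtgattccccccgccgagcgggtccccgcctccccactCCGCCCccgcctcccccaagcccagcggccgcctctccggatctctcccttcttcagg
Slc17a6: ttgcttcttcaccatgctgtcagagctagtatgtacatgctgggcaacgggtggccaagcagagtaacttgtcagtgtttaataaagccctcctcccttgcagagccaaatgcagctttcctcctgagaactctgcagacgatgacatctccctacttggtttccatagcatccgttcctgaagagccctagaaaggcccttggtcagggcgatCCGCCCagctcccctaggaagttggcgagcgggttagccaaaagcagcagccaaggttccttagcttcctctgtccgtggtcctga
Gabrb1: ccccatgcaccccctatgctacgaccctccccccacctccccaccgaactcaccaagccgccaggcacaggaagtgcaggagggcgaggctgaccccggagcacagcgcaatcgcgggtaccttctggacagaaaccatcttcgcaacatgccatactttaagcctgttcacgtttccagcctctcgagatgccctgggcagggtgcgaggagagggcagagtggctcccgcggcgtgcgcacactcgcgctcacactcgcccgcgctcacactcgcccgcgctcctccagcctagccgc
The Gad1 window holds both a TATAAA and a GGGCGG on the minus strand, the Slc17a6 window a GGGCGG alone, and the Gabrb1 window none of the 3 motifs.

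Across the 100 brightest genes of the young colliculus, 78 had a promoter in the RefSeq table. Of these, 5.13% held TATAAA, 65.4% held GGGCGG and 44.9% held CCAAT, and the median GC content was 61.7% with 24 CpG pairs. Of the 9882 measured genes with a promoter, 10.1% held TATAAA, 57.5% held GGGCGG and 38.1% held CCAAT, with a median GC content of 59.3% and 18 CpG pairs. Over all 27025 promoters of the table the shares were 14.2%, 35.9% and 37.9%. A match of letters is a description of the window, and no test was made of these shares. The X chromosome carried 9 of the 100 brightest genes, 9% of those placed, against 3.25% of the 12369 measured genes that could be placed.

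The arrays had been scaled to 1 trimmed mean, which lay between 500.123 and 500.164, and their median intensity ran from 164 to 217. Pairwise correlations of the 8 arrays lay between 0.938 and 0.9672. The gene that marks sex matched the labels of all 8 mice, as given at the end. Young replicate 2, a female, stood apart in the genes of the cerebellum, which borders the colliculus. The median deviation of 15 measured cerebellar genes from their own medians over the 8 mice was 2.35 on that array. It was between -0.25 and 0.07 on the other 7. Young replicate 3, also a female, stood apart in Ttr, the thyroid hormone carrier made by the choroid plexus, at 13.04 against 6.36 to 9.27 on the other arrays. On young replicate 1, a female, the 3′ probe set of the β-actin array control read 12.02, against 9.91 to 10.79 on the others. The 3′ control lay above the 5′ control by 1.77 to 2.61 for β-actin and by 2.11 to 3.03 for Gapdh. The part of this difference in other levels and their spread was not tested. Where replicate 2 or 3 decides a value below, the value without it or the range of the other arrays is given.

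The 30 brightest genes of the young colliculus had mean levels from 12.76 to 13.07 and mixed roles. Which genes come first depends on the probe set, since 35 of the 100 brightest kept their place among the first 100 when all probe sets of a gene were averaged. Hmgn1, a nucleosome-binding protein, came first at 13.07 ± 0.28, a mean intensity of 8715. Mapre2, a protein of growing microtubule ends, followed at 13.04 ± 0.26. Bex1, a small X-linked protein abundant in brain, lay between 12.73 and 13.28, and Hint1, a nucleotide hydrolase, had 12.98 ± 0.24. Stmn3, a tubulin-binding stathmin of neurons, had 12.96 ± 0.26. Snap25, the SNARE protein that drives fusion of synaptic vesicles, had 12.91 ± 0.26, with a lowest, median and highest mouse of 12.57, 12.90 and 13.25. Vsnl1, a neuronal calcium sensor, had 12.88 ± 0.21, and the membrane glycoproteins Gpm6a and Nptn had 12.81 ± 0.28 and 12.81 ± 0.24.

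Mitochondrial genes were spread among the 30. Mff, which recruits the fission machinery to mitochondria, had 12.97 ± 0.27, and Cycs, cytochrome c, had 12.88 ± 0.18. The ATP synthase subunits Atp5pb and Atp5c1 had 12.87 ± 0.25 and 12.81 ± 0.26. Ndufc1 of the first respiratory complex had 12.82 ± 0.22, and Vdac3, an outer-membrane pore, had 12.81 ± 0.26. Atp6v1a, the catalytic subunit of the proton pump that acidifies synaptic vesicles, had 12.82 ± 0.22.

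Other genes among the 30 brightest belong to protein and RNA handling. Psmc2 of the proteasome had 12.95 ± 0.22, and Ndfip1, an adaptor of ubiquitin ligases, had 12.96 ± 0.19. The chaperone Hsp90aa1 had 12.80 ± 0.22, and the RNA-binding genes Hnrnpk, Pabpn1, Paip2 and Serbp1 lay between 12.80 and 12.83. Scd2, the stearoyl-CoA desaturase of brain and myelin lipids, had 12.93 ± 0.36. Vapa, Eid1, Fkbp1a, Atxn10 and Pcnp complete the list with Gad1, at levels from 12.76 to 12.90. Eid1 varied least of the 30, with an SD of 0.11.

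**Figure D1:**
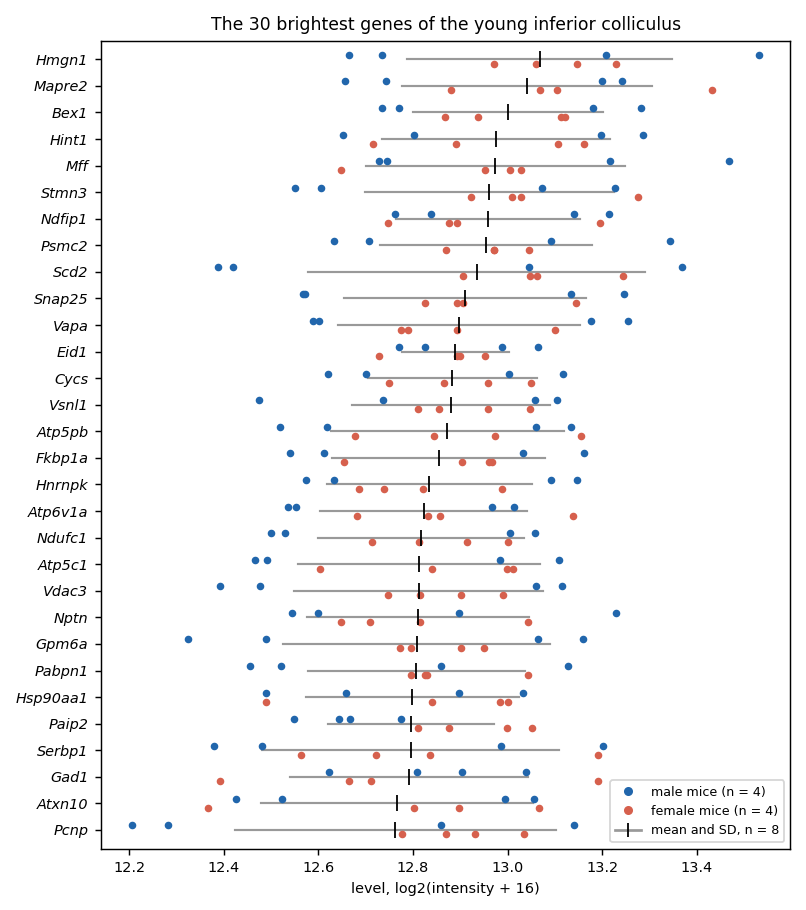
Level, log2(intensity + 16), of the 30 brightest genes in each of the 8 young mice, from Hmgn1 (13.07) at the top to Pcnp (12.76). Blue points are the 4 males, red points the 4 females, black ticks the means and grey lines the SD over the 8 mice. Male and female points lie mixed in these rows, and the same males tend to sit at the left end of many rows.

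The spread of these bright genes went along with the array. Replicate 4, a male, had the highest value for 62 of the 100 brightest genes, and replicate 1, a female, for 25. Replicate 8 had the lowest value for 43 and replicate 5 for 37, both of them males. The median deviation of the 100 brightest genes was 0.29 on replicate 4 and 0.25 on replicate 1, against -0.28 on replicate 5 and -0.31 on replicate 8. Quantile normalization, which gives each array the same distribution, brought the median SD of these 100 genes to 0.159, against 0.258 as deposited. Over all genes it was 0.318 with quantile normalization and 0.333 as deposited.

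A level at which a gene may be no more than background was read from genes that a brain should not use. Of 41 genes typical of skin, liver, pancreas, muscle, testis, lung, pituitary and other organs, 35 were measured. Their levels ran from 4.48 for Fgb, a fibrinogen chain, to 9.33 for Krt10, a keratin of skin, with a median of 6.86. The 90th percentile of these levels, 7.93, is used below as the background limit. Over all genes the median level was 8.04, and 52.4% of genes lay above 7.93. A stricter limit, the level of Krt10, was passed by 27.1% of genes. A gene under the limit is not shown to be absent, since a weak probe set reads low whatever the transcript does.

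Gad1 was among the brightest genes of the tissue. It was 28th of all genes at 12.79 ± 0.25, with a lowest, median and highest mouse of 12.39, 12.76 and 13.19. The 8 mice lay close together, and the lowest was replicate 2, without which the mean was 12.85 ± 0.21. A second, dimmer Gad1 probe set read 8.58 ± 0.20. Gad2 read 8.56 ± 0.39. Slc32a1, the vesicular transporter of GABA and glycine, had 11.04 ± 0.65, and Abat, which breaks GABA down, had 11.73 ± 0.24. Slc32a1 was highest on replicate 2 at 12.21, and was 10.88 ± 0.49 without it. All 4 measured genes of the GABA list passed the background limit.

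Glutamate release was represented by Slc17a6, which was 421st of all genes. It had 12.06 ± 0.28, with a lowest, median and highest mouse of 11.49, 12.19 and 12.30. The lowest mouse was again replicate 2, and the other 7 lay between 11.78 and 12.30, with a mean of 12.14 ± 0.17. The second Slc17a6 probe set read 9.59 ± 0.79 and was highest on replicate 1, at 11.45, so the 2 probe sets do not rank the mice alike. The glutamine transporters Slc38a2 and Slc38a1, which supply the precursor of both transmitters, had 11.59 ± 0.52 and 9.39 ± 0.49. Slc38a2 was lowest on replicate 2, at 10.54, and had 11.74 ± 0.32 without it.

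Of the 13 measured GABA-A receptor subunits, 4 passed the background limit, and Gabrb1 alone passed the level of Krt10. Gabrb1 had 12.29 ± 0.25, 269th of all genes, with a lowest, median and highest mouse of 11.87, 12.30 and 12.78. Gabrg1, a subunit of the same gene cluster, had 9.00 ± 0.51. Gabrp had 8.11 ± 0.32. The fourth was Gabra6, the subunit of cerebellar granule cells, which passed through replicate 2 only. It read 12.82 on that array and 7.40 to 8.32 on the other 7, so that its mean was 8.36 ± 1.83 with replicate 2 and 7.73 ± 0.34 without. Gabrd, also a granule cell subunit, was 9.59 on replicate 2 and 7.33 ± 0.45 on the others. The remaining subunits (Gabre, Gabrb2, Gabrr2, Gabrq, Gabra3, Gabra2, Gabrg3 and Gabrr1) lay between 6.26 and 7.88. Gabbr1, a subunit of the metabotropic GABA-B receptor, had 12.16 ± 0.61, with replicate 5 lowest at 11.08 and replicate 4 highest at 12.71. A second Gabbr1 probe set had 11.52 ± 0.42 and was lowest on replicate 2, at 10.89, so the probe sets do not rank the mice alike.

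A second deposited table held RMA signals (values summarised after normalization across arrays) for 33 probe sets, 27 of them with 1 gene symbol. In the 8 young mice the SD on the log2 scale was smaller in RMA for 25 of the 27, with a median of 0.159 in RMA against 0.467 in the series values. Gabrb1 had an SD of 0.16 in RMA. The brightest Gabbr1 probe set had a mean RMA level of 15.39 with an SD of 0.016. On 7 of the 8 arrays its signal was identical to that of a Gabarapl1 probe set and was the highest of the table. This SD therefore describes the top of the scale on each array and not the spread of Gabbr1. Gabra6 kept its spread, with an SD of 2.02 in RMA and a highest array of 15.35, which was replicate 2.

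Fast excitatory receptors were represented by AMPA subunits. Gria2, the subunit that makes the channel tight to calcium, had 12.02 ± 0.26, Gria1 had 10.27 ± 0.34 and Gria3 had 8.84 ± 0.70. Gria4 read 7.64 ± 0.27, under the limit. In all, 3 of 9 measured AMPA, kainate and delta subunits passed. Of 7 listed NMDA subunits 5 were measured (Grin2a, Grin2b, Grin2c, Grin2d and Grin3b), and Grin1 was not among these 5. None of the 5 passed, with Grin2b highest at 7.87 ± 0.34 and Grin3b lowest at 5.10 ± 0.69. Grin2c, a subunit of cerebellar granule cells, was 8.83 on replicate 2 and 7.48 ± 0.24 without it.

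Of the 8 measured glycine genes, 4 passed the limit, near the share over all genes. Glrb, the β subunit that anchors glycine receptors, had 11.51 ± 0.32, and Gphn, the scaffold gephyrin to which it binds, had 9.74 ± 0.33. Slc6a9, the glycine transporter of glia, had 9.71 ± 0.22. Gcsh, a protein of the glycine cleavage system, had 12.15 ± 0.36. The α subunits Glra1 and Glra3 read 6.39 ± 0.68 and 5.34 ± 0.49. Slc6a5, the glycine transporter of glycinergic terminals, read 7.03 ± 0.31.

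Genes of modulatory transmitters were dim, as were most of their receptors. Of 13 cholinergic genes 2 passed the limit, the nicotinic subunits Chrna4 (8.20 ± 0.21) and Chrnb2 (8.16 ± 0.35). Slc18a3, the vesicular acetylcholine transporter, read 7.07 ± 0.25, and Slc5a7, the choline transporter, read 5.62 ± 0.41. Of 10 dopamine and noradrenaline genes 3 passed. Maoa, which degrades monoamines, had 9.88 ± 0.30, and the synthetic enzymes Ddc and Th had 8.41 ± 0.39 and 8.20 ± 0.29, both under the level of Krt10. Of 13 serotonin and histamine genes the 4 that passed were receptors: Htr1b (9.16 ± 0.15), Htr1a (8.54 ± 0.32), Hrh3 (8.36 ± 0.37) and Htr3a (8.22 ± 0.43). Slc6a4, the serotonin transporter, read 5.13 ± 0.37.

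**Figure D2:**
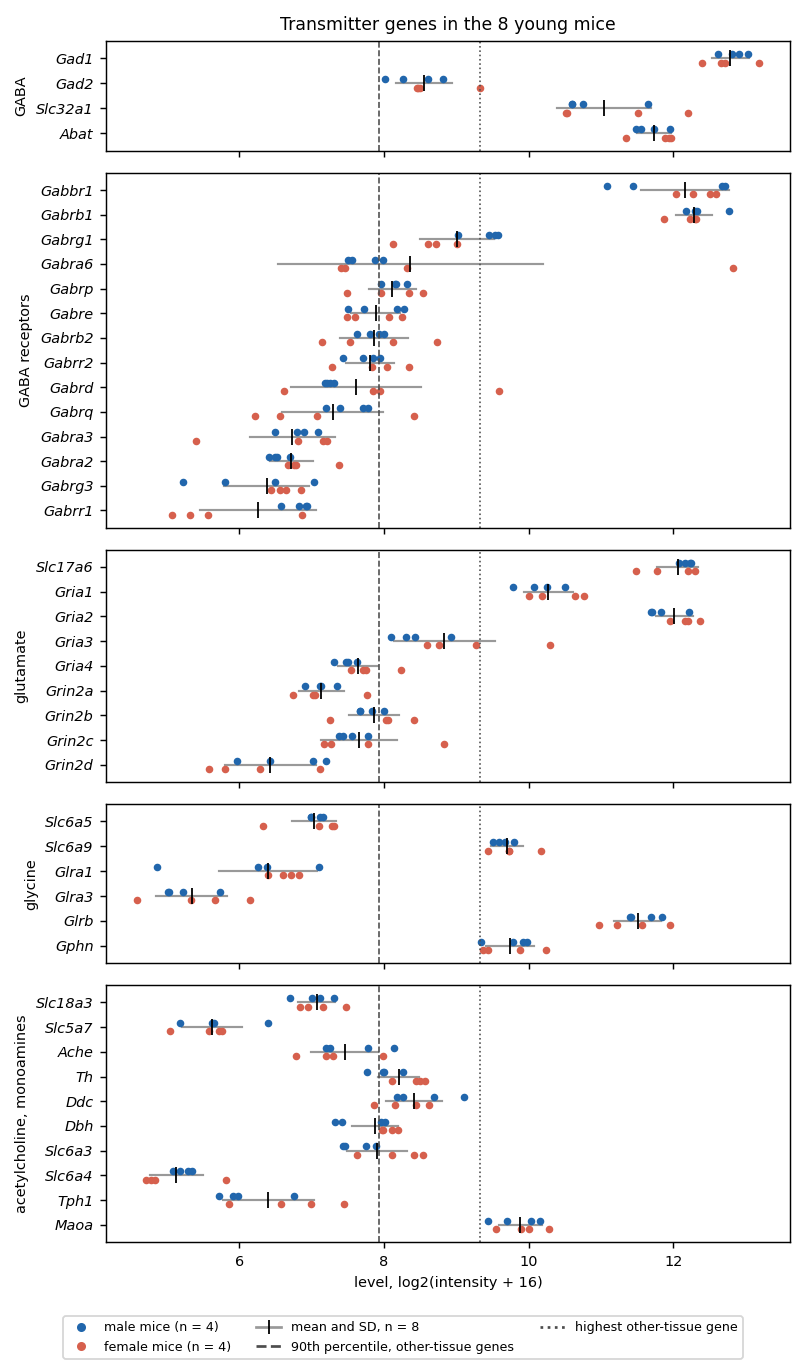
Level, log2(intensity + 16), of transmitter and receptor genes in each young mouse, with blue points for the 4 males, red points for the 4 females, ticks for means and grey lines for the SD over 8 mice. The dashed line is the background limit of 7.93 and the dotted line the highest other-tissue gene, 9.33. Gad1, Gabbr1, Gabrb1, Slc17a6, Gria2 and Glrb lie far to the right of both lines, and Gabra6 has 1 female point at 12.82.

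Of 19 measured neuropeptide and granin genes 11 passed the limit, near the share over all genes, with a median of 9.24. The vesicle granins Chgb, Scg2 and Chga had 12.26 ± 0.40, 11.48 ± 0.40 and 10.17 ± 0.19. Tac1, the precursor of substance P, had 11.87 ± 0.28, with a lowest, median and highest mouse of 11.32, 11.90 and 12.21. Penk, the enkephalin precursor, had 10.40 ± 0.38, Adcyap1 9.63 ± 0.31, Sst (somatostatin) 9.58 ± 0.28, Cck 9.49 ± 0.35 and Npy 9.24 ± 0.45. Vip, made by a class of glutamate neurons in the colliculus, had 10.24 ± 0.83. Vip was 8.45 on replicate 2 and 9.90 to 11.11 on the other 7 mice. The median deviation of the peptide genes was -0.43 on replicate 2 and -0.10 to 0.14 on the others.

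All 9 measured calcium-binding genes passed even the level of Krt10. Pvalb (parvalbumin), Calb1 (calbindin) and Calb2 (calretinin) had 10.70 ± 0.81, 10.51 ± 0.93 and 10.14 ± 0.53. All 3 were highest on replicate 2, and without it they had 10.53 ± 0.70, 10.22 ± 0.50 and 9.98 ± 0.26. S100b, mainly of glia, had 11.52 ± 0.38. The sensors Hpcal1, Ncald and Hpca lay between 10.44 and 11.25.

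Of 18 measured channel genes picked for auditory neurons, 13 passed the limit. The sodium channels Scn1a, Scn8a and Scn2a had 12.27 ± 0.27, 10.76 ± 0.27 and 10.22 ± 0.62. The potassium channels of fast-firing neurons Kcnc1 and Kcna1 had 9.45 ± 0.67 and 9.34 ± 0.67. Kcnd2, of the transient A-type current, had 10.88 ± 0.39. Kcnj10, the inward rectifier of astrocytes, had 12.12 ± 0.32. The cation channels Hcn2 and Hcn3, which open on hyperpolarization, read 7.25 ± 0.49 and 6.77 ± 0.65.

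Several transcription factors of the midbrain were bright. Of 21 measured genes used in the making of the midbrain and its neurons, 11 passed the limit, close to the share over all genes. Tcf7l2, a Wnt effector that stays on in thalamus and midbrain, had 12.46 ± 0.38, and Meis2 had 10.57 ± 0.54. En2, a factor of the midbrain and hindbrain border, had 9.90 ± 0.62, and the GABA neuron factors Tal1 and Gata2 had 9.53 ± 0.34 and 9.31 ± 0.20. Tcf7l2 and Meis2 were lowest on replicate 2 (11.75 and 9.48) and En2 was highest on it (11.18). Without it the 3 genes had 12.56 ± 0.28, 10.73 ± 0.32 and 9.71 ± 0.37. Pax7, a factor of the dorsal midbrain, read 7.19 ± 0.56, and En1 read 7.19 ± 0.27.

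Of 12 forebrain genes, 10 did not pass the limit. The 2 that did were Wfs1, also made in other brain regions, at 11.18 ± 0.14 and Nrgn at 8.74 ± 0.55. Neurod6 and Tbr1, of cortical excitatory neurons, read 6.04 ± 0.37 and 5.56 ± 0.38, and Dlx1 of forebrain interneurons read 4.46 ± 0.10. Of 9 Hox genes, which mark hindbrain and spinal cord, 7 did not pass, and the 2 that did were Hoxc6 (8.30 ± 0.28) and Hoxb2 (8.14 ± 1.00).

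Cerebellar genes were of 2 kinds. Pcp4 and Reln, also used outside the cerebellum, were bright on all 8 arrays, at 12.32 ± 0.22 and 11.77 ± 0.31. Several granule cell and Purkinje cell genes had their highest value on replicate 2. Car8, of Purkinje cells, was 12.91 on that array and 7.99 to 9.23 on the others. Ppp1r17, of Purkinje cells, was 12.63 against 7.14 to 7.98, and Pcp2 was 11.02 against 6.44 to 8.34. Neurod1, a granule cell factor, was 12.46 against 8.42 to 9.24, Zic1 12.67 against 8.37 to 10.75, Cadps2 12.23 against 8.44 to 9.50, and Cbln3 10.90 against 5.78 to 7.80. Barhl1, another granule cell factor, read 7.64 ± 0.35 and was lowest on replicate 2. The part of cerebellar tissue in other values of replicate 2 was not tested.

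Markers of neurons and of both kinds of macroglia were bright. Of 16 general neuronal genes 13 passed the limit, with a median of 10.87. Eno2, a glycolytic enzyme of neurons, had 12.55 ± 0.20 and Stmn2 12.44 ± 0.39. The neurofilaments Nefm, Nefl and Nefh had 12.19 ± 0.37, 11.45 ± 0.14 and 10.62 ± 0.39. Rbfox3, the neuronal nuclear antigen, read 7.40 ± 0.51, Map2 7.72 ± 0.31 and Tubb3 7.72 ± 0.57, all under the limit.

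Of 19 astrocyte genes 17 passed, with a median of 10.65. Gja1, the gap junction protein of astrocytes, had 12.68 ± 0.20. Clu and Aldoc had 12.48 ± 0.41 and 12.19 ± 0.29, the water channel Aqp4 had 11.49 ± 0.37 and Apoe had 11.48 ± 0.36. Glul, glutamine synthetase, had 11.94 ± 0.82, from 10.43 on replicate 5 to 12.82 on replicate 4. A second, dimmer Glul probe set had 8.88 ± 0.19, with 9.03 on replicate 5 and its lowest value, 8.63, on replicate 4. The wide spread and the order of mice thus belonged to 1 probe set. Gfap, the intermediate filament of reactive astrocytes, read 6.77 ± 0.59, under the limit on all 8 arrays.

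Of 12 oligodendrocyte genes 11 passed, with a median of 10.95. The myelin genes Mbp, Mobp and Cnp had 12.63 ± 0.35, 12.54 ± 0.16 and 11.77 ± 0.27. The spread of Mbp depended on the probe set. Further Mbp probe sets had 12.62 ± 0.47 and 12.44 ± 0.42, but also 10.90 ± 1.62 and 10.44 ± 1.64. The last pair was lowest on replicate 5, at 7.70 and 7.45. Qk, an RNA-binding protein of myelinating cells, had 11.97 ± 0.27. Mag, which faces the axon, and Mog, of the outermost myelin, had 8.32 ± 0.41 and 8.27 ± 0.29. Of 6 precursor genes 5 passed, with Olig1 at 10.46 ± 0.22. Pdgfra, used by both precursors and meningeal fibroblasts, had 8.34 ± 1.29, lowest on replicate 2 at 5.67, and 8.72 ± 0.76 without it.

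Of 15 microglial genes 8 passed, and of 14 endothelial genes 8, both near the 52.4% of all genes. Ctss, a lysosomal protease, had 11.80 ± 0.25 and Csf1r, the receptor microglia need to live, had 11.28 ± 0.25. Cx3cr1, P2ry12 and Tmem119 had 9.08 ± 0.45, 8.61 ± 0.34 and 8.43 ± 0.37. Other microglial genes lay under the limit, among them Aif1 (7.32 ± 0.44), Itgam (5.77 ± 0.50), C1qc (5.58 ± 0.68) and C1qa (5.42 ± 0.18). Among the endothelial genes Itm2a had 10.09 ± 0.34 and Slco1a4, a transporter of the blood-brain barrier, had 9.66 ± 0.37. Cdh5, Cldn5 and Pecam1 read 7.70 ± 0.36, 7.29 ± 0.49 and 6.12 ± 0.58, under the limit. Of 11 pericyte and smooth muscle genes 4 passed, with Rgs5 at 9.67 ± 0.40. Of 11 blood genes 1 passed, the neutrophil granule gene Ngp at 7.96 ± 0.25, and the globin gene Hba-a1 read 6.89 ± 0.41.

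Several genes of the meninges differed between mice. The median deviation of the 15 measured genes was 0.14, 0.28, 0.41 and 0.58 on replicates 5, 6, 7 and 8. It was -0.17, -0.27, -0.28 and -0.46 on replicates 1, 2, 3 and 4. Mgp, an inhibitor of calcification made by fibroblasts and vessels, was 9.11, 8.35, 7.67 and 8.44 on replicates 5, 6, 7 and 8. It was 5.01, 5.30, 4.67 and 4.90 on replicates 1, 2, 3 and 4. Ogn, a proteoglycan of connective tissue, was 8.99 to 9.95 on the first set and 6.87 to 7.31 on the second, and Aldh1a2, which makes retinoic acid in the meninges, was 8.36 to 9.46 and 5.12 to 7.43. Slc6a20a was 8.63 to 10.01 and 6.94 to 7.97. Fmod was 8.05 to 9.00 and 7.11 to 7.52, and Igf2 was 9.03 to 9.74 and 7.44 to 8.71. The sets do not follow sex, since replicate 4 is a male and replicate 7 a female, but they do follow the order of the mouse numbers and of deposition. Mgp, Ogn, Aldh1a2 and Slc6a20a had SDs above 1, and not every other gene of the list followed the division. Ptgds, the prostaglandin synthase of meninges and glia, lay between 11.44 and 12.36, with 11.92 on replicate 1 and 11.87 on replicate 8. A dimmer Ptgds probe set did follow the division. It read 10.31 to 11.15 on replicates 5 to 8 and 8.94 to 9.45 on replicates 1 to 4. Dcn (decorin) lay between 8.33 and 8.85, with 8.71 on replicate 1 and 8.63 on replicate 5. Lum, also of the list, was 8.11 on replicate 4 and 7.76 on replicate 8. The labels name no batch, the division was seen in the values, and no test was made of it.

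Choroid plexus genes did not share 1 high array. Ttr was 13.04 on replicate 3 and 6.36 to 9.27 on the others, a mean of 8.32 ± 2.08 with replicate 3 and 7.65 ± 0.92 without. The 2 dimmer Ttr probe sets were also highest on replicate 3, at 11.17 and 11.13. Folr1, Kl and Aqp1, other genes of the plexus, read 7.76 ± 0.31, 6.45 ± 0.50 and 7.21 ± 0.35, and the highest mouse of each was replicate 7. Sostdc1 read 7.71 on replicate 3 and 7.67 on replicate 4. The median deviation of the 9 measured genes of the plexus was -0.08 on replicate 3 and highest on replicate 7, at 0.55. Of these 9 genes, 7 did not pass the background limit. The list of other tissues was also highest on replicate 7, at 0.33, as were the blood (0.44) and endothelial (0.31) lists. The high value there is thus not particular to the plexus. Ependymal genes were dim, with 1 of 6 above the limit.

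**Figure D3:**
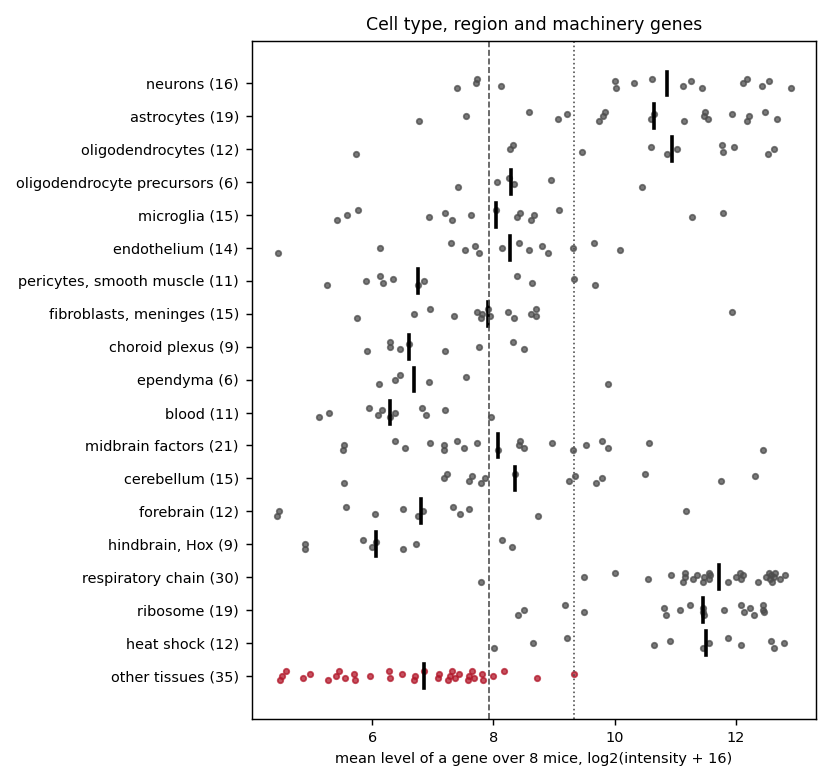
Mean level over the 8 young mice, log2(intensity + 16), of each gene (point) in lists for cell types, regions and cell machinery, with the median as a black bar and the number of measured genes in brackets. Red points are genes of other tissues. The dashed line is the background limit of 7.93 and the dotted line its highest gene, 9.33. Neuronal, astrocyte and oligodendrocyte medians (10.87, 10.65 and 10.95) stand to the right of both lines, and choroid plexus, ependymal and blood medians to the left.

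Lists of general cell machinery were among the brightest. Of 30 respiratory chain and ATP synthase genes 29 passed the limit and 25 were among the brightest 10% of all genes, with a median of 11.72. Of 19 ribosomal protein genes all passed, with a median of 11.46. The ribosomal list was high on replicate 6 (median deviation 0.40), where Rps2 was 12.51 against a mean of 11.25 ± 0.82. All 12 measured heat shock genes passed, with Hspa8 at 12.58 ± 0.39 and the inducible genes Hspa1a and Hspa1b at 8.01 ± 0.36 and 8.65 ± 0.52.

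Genes that answer to activity and stress ranged widely in level. Egr1, an immediate early transcription factor, had 12.56 ± 0.19, from 12.29 to 12.81, and Fos had 11.52 ± 0.36. Arc read 6.64 ± 0.80 and Junb 5.55 ± 0.58, under the limit. Of 17 immediate early genes 9 passed, near the 52.4% of all genes. Of 15 glucocorticoid-responsive genes 11 passed, and their median deviation ran from -0.35 on replicate 2 to 0.49 on replicate 8. On replicate 8, Sgk1 was 12.28 against a mean of 10.71 ± 0.88, and Zbtb16, Fkbp5, Tsc22d3 and Cdkn1a were each at their highest. Not every gene of the list was high there. Nfkbia, its brightest gene, was 12.24 against a mean of 12.46, and Lcn2, its dimmest, 4.36 against 4.61. A dimmer Fkbp5 probe set read 7.56 on replicate 8 and was highest on replicate 2, at 8.27. Among clock genes Nr1d2 had 11.95 ± 0.21, Dbp 10.11 ± 0.41 and Per1 9.46 ± 0.40. Nr1d1 read 5.46 ± 0.36.

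**Figure D4:**
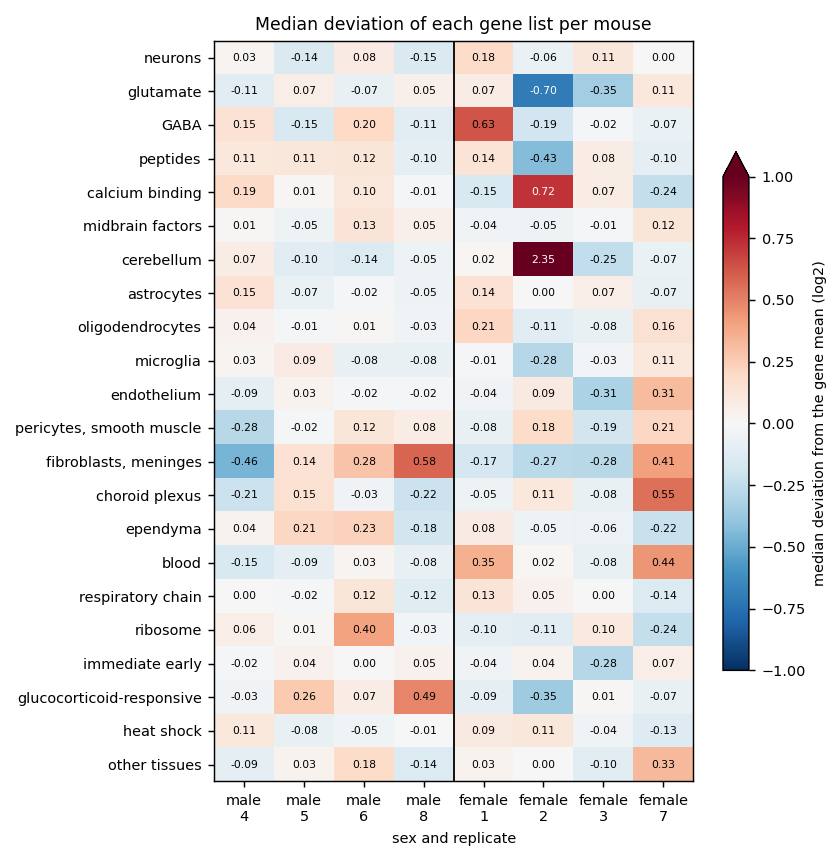
Median deviation (log2) of the genes of each list from their own median over the 8 young mice, in each mouse. The word mean on the colour bar stands for this median. The 4 males are on the left and the 4 females on the right, named by replicate. Colour runs from -1 (blue) to 1 (red), and values above 1 take the darkest red. The cerebellar list stands out on replicate 2 (2.35), the meningeal list runs from -0.46 on replicate 4 to 0.58 on replicate 8, and the general neuronal list stays between -0.15 and 0.18.

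The spread between the young mice was small for most genes. The median SD over the 12393 genes was 0.333, and the 10th and 90th percentiles were 0.185 and 0.677. It depended on level, with a median SD of 0.628 for genes at levels from 5.60 to 6.47 and 0.262 for those above 10.97. The number of genes with an SD above 1 was 120, and it was 920 with a pseudocount of 1 and 25 with a pseudocount of 64. Among the 7436 genes in the upper 60% by level, above 7.57, there were 30, and replicate 2 was the highest array for 13 of these and the lowest for 8. Without replicate 2 there were 18.

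The 15 most variable genes of that upper range were led by Ttr (SD 2.08) and Xist (2.06), followed by Gabra6 (1.83), Ppp1r17 (1.78) and Car8 (1.53). Aldh1a2, Pcp2, Zic5, Zic1, Pdgfra, Neurod1, Clasrp, Msx1, Ogn and Cadps2 had SDs below that of Car8, down to 1.19. Without replicate 2 the 10 most variable were Ttr, Xist, Msx1, App, Ciao2b, Ogn, Clasrp, Aldh1a2, Slc6a20a and Rian. App, the amyloid precursor, had 11.53 ± 1.14, from 9.50 on replicate 5 to 12.97 on replicate 1. A second App probe set had 10.82 ± 0.38 and was lowest on replicate 6, so the wide spread belonged to 1 of its 4 probe sets. Rian, a non-coding RNA of an imprinted cluster, was 12.24 on replicate 3 and 9.01 on replicate 6. A dimmer Rian probe set read 9.12 on replicate 3 and 9.28 on replicate 6. The dimmest read 7.29 on replicate 3, its lowest array, and 8.19 on replicate 6. The high value on replicate 3 thus belonged to the brightest Rian probe set alone.

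The 10 least variable genes of the same range included cytoskeletal and signalling genes of high level. Wnk1, a kinase that controls ion transport, had 12.17 ± 0.05 and lay between 12.08 and 12.22. Clasp1, which stabilises microtubules, had 12.17 ± 0.06, Sptan1 (spectrin) 12.33 ± 0.07, Psd3 11.90 ± 0.07 and Usp7, a deubiquitinase, 11.87 ± 0.07. Cystm1, Nme7, Cdipt, Sfxn4 and Ahcy had SDs from 0.06 to 0.08. These SDs are below the array-wide shift of the brightest genes described above.

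**Figure D5:**
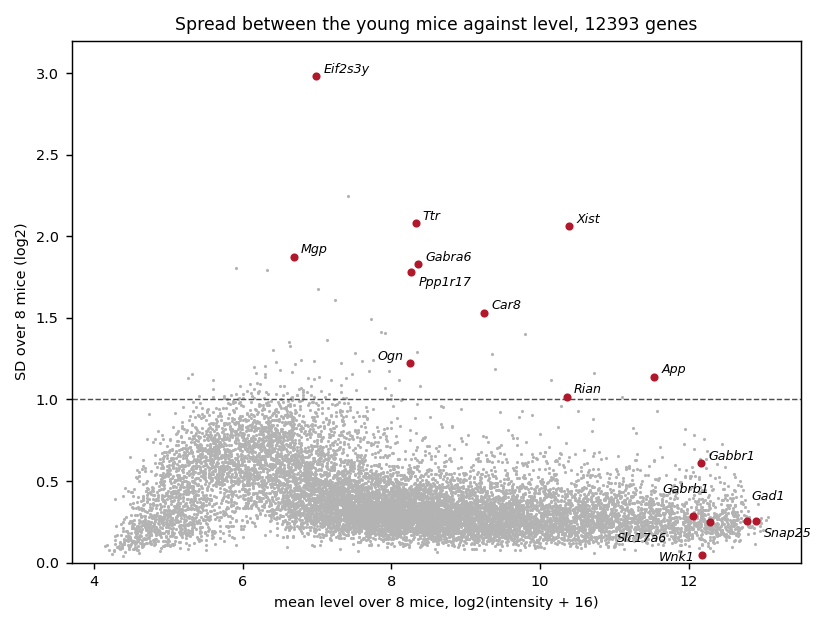
SD over the 8 young mice (log2) against mean level, log2(intensity + 16), with each of the 12393 genes as a grey point and genes named in the text in red. The dashed line is an SD of 1. Eif2s3y, Ttr, Xist, Gabra6 and Ppp1r17 lie far above the cloud, and Gad1, Gabrb1, Slc17a6 and Snap25 lie low in it at the bright end.

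Sex was the only labelled factor that divided the young mice, and males were set against females over all 22626 probe sets with limma. The adjusted p was under the threshold of 0.05 for 5 probe sets, 0.0221% of those tested. Of these, 3 were higher in males (0.0133%) and 2 were lower (0.00884%). The count depended on the arrays in the fit, with 29 calls when all 39 arrays shared 1 spread and 8 without replicate 7, a female, and all 5 were among them. Eif2s3y, a translation factor gene of the Y chromosome, had 9.57, 9.85, 9.57 and 10.11 in the males and 4.29, 4.15, 4.16 and 4.22 in the females. It was higher in males by 5.57 (SE 0.25, limma adjusted p = 1.08e-06), and the groups lie far apart. Xist, the RNA that silences an X chromosome in females, had 8.15 to 8.98 in the males and 12.12 to 12.48 in the females, a difference of -3.83 (SE 0.18, limma adjusted p = 1.52e-06). A second Xist probe set had 4.61 to 6.62 in the males and 9.79 to 11.61 in the females, with a difference of -5.10 (limma adjusted p = 0.00116). The other 2 called probe sets carry no gene symbol here, and both were higher in males, by 5.84 and 4.92.

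In the fit of the 8 arrays no autosomal gene with a symbol was called between the sexes. Of the 24 further calls with all 39 arrays, 17 were autosomal, led by Pkia, a protein kinase inhibitor, higher in males by 1.00 (SE 0.17, limma adjusted p = 0.00317). Of the 3 further calls without replicate 7, 2 were autosomal. In the fit of the 8 arrays the next gene was Kcne4, a potassium channel subunit, with 8.03 in males and 6.03 in females and a limma adjusted p of 0.156. Male and female arrays did not overlap for 1110 probe sets, 4.91% of those tested, and 1876 had an unadjusted p under 0.05. The Y-linked genes Kdm5d and Uty were dim on the same arrays. Kdm5d had 7.62 to 8.37 in the males and 6.02 to 7.36 in the females, and Uty had 7.30 to 7.57 in the males and 5.77 to 7.38 in the females. The X-linked partners Ddx3x and Eif2s3x, with 12.66 ± 0.21 and 11.77 ± 0.19 over all 8 mice, were not called.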

How the data were processed

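Total RNA of the inferior colliculus was labelled with biotin and read on 1 Affymetrix MOE430A array per mouse, per the labels' protocols. The deposited series values are intensities on a linear scale, and neither the labels nor the file headers name the software behind them. The 8 young arrays have trimmed means between 500.123 and 500.164, with 2% of probe sets trimmed at each end, so the deposited arrays had already been scaled. Whether background was subtracted is unknown. The second deposited table holds RMA signals, also intensities on a linear scale, per the file headers. Single values were quoted from it for GABA genes alone. Its counts and median SDs cover all 27 probe sets with 1 symbol, and not all of these are GABA genes. The further 249 columns of values per sample were not used.

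The array holds 22690 probe sets. Its 64 controls were set aside, and 22626 were analysed. The platform annotation gave 1 symbol to 20380, several to 691 and none to 1555, and only the first kind was named. The RefSeq table held 20351 of the identifiers, and 0 symbols changed. Intensities were taken as log2(intensity + 16) with no further normalization. Mice were grouped by the labelled hearing status and sex, and their replicate numbers follow the order of deposition. Nothing in the labels pairs them.

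Males were set against females with limma 3.58.1 in R 4.3.3 (empirical Bayes with a variance trend, 2-sided, Benjamini-Hochberg over the 22626 probe sets, threshold 0.05, 6 residual degrees of freedom). The fit was tested on simulated data for that comparison, with 200 changed probe sets among 22626. It recovered 36.5% of changes of 1, 91% of changes of 2 and 100% of changes of 4 on the log2 scale. False calls numbered 6, 7 and 7 in the same order. These rates describe the simulated data and were not split by level. Recovery on the young arrays themselves, with their array-wide shifts, was not tested. Levels and SDs were computed in Python 3.11.15 and are descriptions without a test. The number of arrays limits the precision, and as each mouse gave 1 array, the spread holds both animal and technical differences.

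Genes are named by a rule. They are the 30 brightest, members of the gene lists, the 15 most and 10 least variable genes of the upper 60% by level, the 10 most variable without replicate 2, and all genes called between the sexes. Gabarapl1, Kcne4 and Pkia lie outside the rule and were chosen after their values were seen. The members and lists were chosen with earlier results of these data known. Alternatives were pseudocounts of 1 and 64, quantile normalization, centring on the median, other choices of probe set, a filter on the dimmest 40%, other variance models, all 39 arrays in the fit, the RMA signals, and each mouse left out in turn. The level of Krt10 as a limit was chosen after seeing the data.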

Additional observations from a re-analysis of the deposited data

Results flagged for a closer look

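Within the 8 young mice, a value was singled out where the highest or lowest mouse lay far from the nearest of the others relative to the whole range (Dixon's test at 95%). Chance alone does this for about 1 in 20 groups, and it was met by 1060 of the 12393 genes, 8.55%. Replicate 2 accounted for 318 of these genes, the most of any array.

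On replicate 2 the cerebellar list stood at a median deviation of 2.35, the calcium-binding list at 0.72 and the peptide list at -0.43. The high genes on that array were Car8 (12.91), Gabra6 (12.82), Ppp1r17 (12.63), Neurod1 (12.46), Cadps2 (12.23), Hpcal1 (12.20), Calb2 (11.30), Zic5 (11.24), Pcp2 (11.02), Cbln3 (10.90), Gabrd (9.59) and Grin2c (8.83). The low genes were Cnp (11.18), Vip (8.45), Tmem119 (7.60) and Gabra3 (5.40). In the RMA table Gabra3 was instead highest on replicate 2, at 9.76, so its low value holds in 1 of the 2 tables. Cerebellar and non-cerebellar genes are both among them, and the part of cerebellar tissue in the second kind was not tested.

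On replicate 3, Ttr was high at 13.04 and Gabra2 at 7.37, Slc6a5 was low at 6.32, and the immediate early list was low at -0.28. On replicate 1 the 3′ β-actin control was high at 12.02 and Penk was low at 9.61. On replicate 5, Grin3b was high at 6.61 and Hoxb2 low at 5.82. On replicate 6, Hpca was high at 11.04. On replicate 7, Wnk1 was low at 12.08 within a range of under 0.2, and Ciao2b was low at 5.40. On replicate 8, Glra1 was low at 4.85. Gabra2, Gabra3, Slc6a5, Grin3b and Glra1 have means under the background limit.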

How the results depend on the processing

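The 5 probe sets called between males and females were all called again with a pseudocount of 1 or 64, quantile normalization, median centring, no variance trend and a robust variance. The count was 4 without the dimmest 40% of probe sets and 4 without probe sets with a suffix for shared probes, all of them among the 5. It was 29 with all 39 arrays in the fit, where the spread is estimated from more mice, and 17 of the 24 further calls were autosomal genes. Leaving out 1 mouse gave 5 to 8 calls, with the highest count without replicate 7, a female. No paired analysis was possible because mouse numbers are unique and no label pairs males with females.

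The 100 brightest genes shared 35 genes with the ranking by the mean over all probe sets of a gene, and 72 when probe sets with a suffix for shared probes were left out. They shared 93 with quantile normalization, 100 with either other pseudocount, and 90 to 98 without 1 mouse, while median centring keeps their order by construction. The order of bright genes thus depends on which probe set stands for a gene. The count of genes with an SD above 1 was 120, and became 920 with a pseudocount of 1, 25 with a pseudocount of 64 and 30 without the dimmest 40% of genes. It was 81 to 126 under the other scalings and probe set choices, and 114 to 155 without 1 mouse.

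Of the levels of 213 named genes, 0 moved by over 1 SD with quantile normalization, 10 with a pseudocount of 1, 25 with a pseudocount of 64 and 78 with the mean over probe sets. Median centring and leaving out 1 mouse cannot move a mean that far by their construction, so they say nothing of stability here. RMA levels lie on a scale of their own, and all 15 that could be compared moved.

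With the level of Krt10 as the limit, the lists whose count dropped by over 1.5 times were cholinergic (0), dopamine and noradrenaline (1), serotonin and histamine (0), GABA-A (1), channels (8), midbrain (5), forebrain (1), Hox (0), precursors (1), microglia (2), endothelium (2), pericytes (2), meninges (1), choroid plexus (0), blood (0) and glucocorticoid-responsive genes (7). Intensities without a detection call limit what can be said of any dim gene.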
